A study of Mus musculus with 10 samples.

Results

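Immediate early genes were followed across 10 RNA-seq libraries of inguinal subcutaneous white adipose tissue from C57BL/6J mice. The 10 genes are Fos, Fosb, Jun, Junb, Atf3, Egr1, Egr2, Nr4a1, Ier2 and Ier3. They were chosen by symbol as genes that answer a stimulus first, not by a threshold on their values. Earlier results of these data were known when they were chosen. They make up 10 of the 24421 gene rows in the deposited tables. All 10 had enough counts to be tested.

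The mice were labelled wild type. The FLASH group (4 libraries) received 33.3 Gy of electrons to the left hindlimb in the FLASH mode of an ElectronFlash linear accelerator, in which the dose is given at a very high rate. The CONV group (3 libraries) received the same dose from the same machine in the conventional mode, and the sham group (3 libraries) was not irradiated. The fat was taken from the irradiated area on day 70, frozen and extracted with TRIzol, and every library carries the label batch 1. The labels give neither age nor sex, nor the time between death and freezing. The labels do not say that each library is a separate mouse, so the p-values measure only the spread between these samples, which may be technical.

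The gene rows of a library summed to between 22387877 and 36032027 counts. All 10 adipocyte markers were detected in every library, but FLASH replicate 3 and CONV replicate 2 stood apart. Their adipocyte markers summed to 3605 and 3285 CPM (counts after scaling a library to 1000000), against 14590 to 21470 in the other 8 libraries. Their 8 B cell markers summed to 1848 and 2154 CPM, against at most 6.98 elsewhere, and their 8 T cell markers to 731 and 473 CPM, against at most 9.78. This lymphocyte-rich pair holds 1 library of each irradiated group, so comparisons of the members are given with all 10 libraries and with the 8 others, and the lists of related genes with their medians in both. In bulk tissue, fewer cells of a type and less RNA per cell cannot be told apart.

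Immediate early genes are transcribed within minutes of a stimulus, before any new protein is made, because the factors that switch them on already sit in the cell. Kinases of the ERK, p38 and JNK cascades activate the serum response factor with its ELK partners at CArG boxes, and CREB and ATF proteins at cyclic AMP response elements. Most of the products are transcription factors, among them the Fos and Jun proteins that pair to form AP-1, and their mRNAs are short-lived. Dissection, warming and delay before freezing are known to raise the same genes in many tissues, so in excised fat their level can reflect the handling of a sample as well as the state of the animal.

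The promoters of 3 members are shown as examples, and edgeR called none of them with all 10 libraries. They are Fos, which encodes an AP-1 subunit, Junb, and Egr2, which was highest in the lymphocyte-rich pair. Junb was the only member whose CONV and sham libraries did not overlap, which held for 8.58% of all genes tested in the same direction. Each line holds the 250 bases just before a RefSeq transcription start (GRCm38.p6), written 5′ to 3′ along the gene's strand. Capitals mark TGACG, the core of the cyclic AMP response element, on either strand (CGTCA on the other), and the CArG box.
Fos promoter, chr12:85473640-85473889, plus strand: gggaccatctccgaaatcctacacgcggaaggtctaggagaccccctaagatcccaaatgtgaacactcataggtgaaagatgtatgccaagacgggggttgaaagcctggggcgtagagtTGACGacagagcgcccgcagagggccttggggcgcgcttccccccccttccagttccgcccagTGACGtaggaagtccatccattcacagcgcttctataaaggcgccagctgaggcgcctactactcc
Junb promoter, chr8:84978749-84978998, minus strand: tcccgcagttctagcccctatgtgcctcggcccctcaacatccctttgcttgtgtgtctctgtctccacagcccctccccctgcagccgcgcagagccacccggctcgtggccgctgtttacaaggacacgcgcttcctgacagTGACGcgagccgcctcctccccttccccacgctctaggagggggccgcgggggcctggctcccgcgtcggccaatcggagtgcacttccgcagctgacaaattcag
Egr2 promoter, chr10:67537619-67537868, plus strand: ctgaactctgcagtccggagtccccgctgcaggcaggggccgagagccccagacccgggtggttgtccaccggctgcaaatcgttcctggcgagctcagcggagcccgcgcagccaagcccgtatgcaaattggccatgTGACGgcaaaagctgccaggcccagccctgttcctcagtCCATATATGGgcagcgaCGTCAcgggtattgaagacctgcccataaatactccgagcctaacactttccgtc
The Fos window holds TGACG 129 and 66 bases before the start, with TATAAA at 33 bases, the Junb window holds it once at 106 bases, and the Egr2 window holds a CArG box at 72 bases between TGACG matches at 111 and 55 bases.

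RefSeq windows of this kind were used for 8 of the 10 members. None was used for Egr1 or Ier2, so the motifs of these genes were not read. TGACG was present in 6 of the 8 (Fos, Fosb, Junb, Egr2, Atf3 and Nr4a1) and in 17.7% of 32817 mouse promoter windows of the same length. The 8 members had 12 windows. Egr2 had several and was counted if any of them held a motif, whereas the shares of all windows count each window singly. Nr4a1 held 4 copies, and Jun and Ier3 held none. The CArG box was found in Egr2 alone, against 1.47% of all windows. Bases farther than 250 before the start were not read, so a motif not found here may lie outside the window. The whole palindrome TGACGTCA, which contains TGACG, was in 0 of the 8 (1.55% of all windows), as were the AP-1 motif TGANTCA (6.75%) and the STAT motif TTCNNNGAA (7.01%). The EGR motif GCGNGGGCG was in Fosb and Nr4a1 (4.7%), TATAAA in Fos (12.4%), and CCAAT in Jun, Junb, Egr2 and Ier3 (33.8%). All motifs were read on both strands, and TGACG was added after the windows had been read, so these shares only describe the windows.

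In the sham libraries the members spanned a wide range of levels per length. Jun had the highest level per kilobase of exon, 28.4 ± 4.91 CPM per kb (SD, n = 3), which is above 91.6% of the genes tested. Egr1 followed at 14.4 ± 2.86 CPM per kb, and the ranges of these leading genes over the sham libraries (22.9 to 32.4 and 11.2 to 16.7) did not overlap. Fos (7.14 ± 1.59), Nr4a1 (6.66 ± 3.56), Junb (5.66 ± 1.29), Ier2 (5.61 ± 1.39) and Ier3 (3.89 ± 0.983 CPM per kb) formed a middle group whose neighbours did not differ beyond their spread. Atf3 (1.70 ± 0.609), Egr2 (0.910 ± 0.152) and Fosb (0.759 ± 0.504 CPM per kb) were the lowest.

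**Figure D1:**
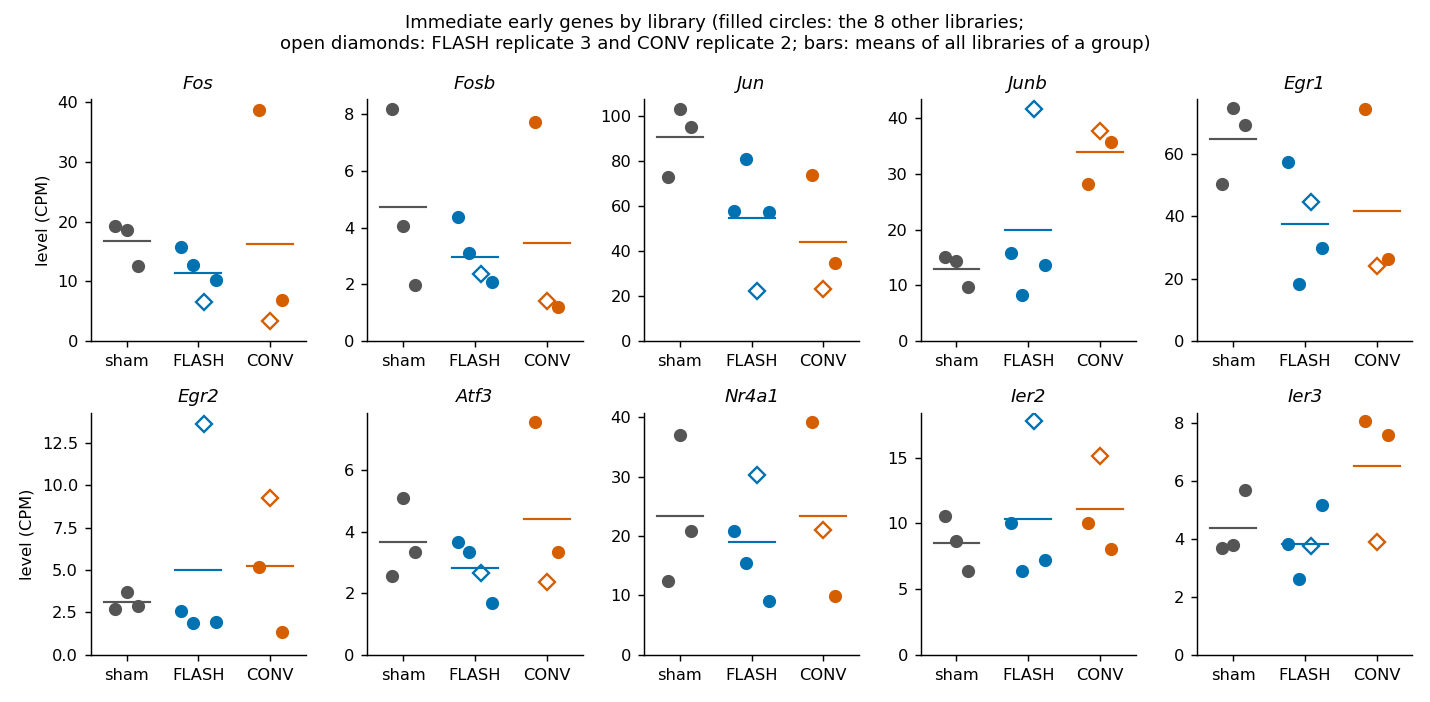
Level of each immediate early gene (CPM, linear axis from 0) in every library, by group; filled circles are the 8 other libraries, open diamonds the lymphocyte-rich FLASH replicate 3 and CONV replicate 2, and bars the mean of all libraries of a group. In the Junb panel the 3 CONV libraries (28.2 to 37.8 CPM) lie above the 3 sham libraries (9.65 to 15.1 CPM). The same held for 8.58% of all genes tested, and in the other panels the groups overlap.

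The Fos proteins are AP-1 subunits that bind DNA only as partners of a Jun protein. Fos (chr12:85473890-85477273, plus strand, mm10) was present at 19.3, 18.6 and 12.5 CPM in sham replicates 1 to 3. The FLASH replicates, in order, held 15.8, 12.8, 6.56 and 10.2 CPM, and the CONV replicates 38.7, 3.42 and 6.84 CPM. CONV thus held the highest and the lowest Fos values of the series, an 11.3-fold span over 10 libraries against 1.54-fold within sham. The edgeR quasi-likelihood test gave a log2 fold change of −0.57 ± 0.71 (SE) for FLASH against sham and −0.04 ± 0.76 for CONV against sham, with Benjamini-Hochberg adjusted p of 0.998 and 0.984. Without CONV replicate 1 the CONV value was −1.72, and without CONV replicate 2 it was 0.43, so single libraries set its sign.

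Fosb (chr7:19302696-19310051, minus strand), the closest relative of Fos, had the lowest level per length. Its values were 8.17, 4.07 and 1.98 CPM in sham, 4.39, 3.11, 2.35 and 2.07 CPM in FLASH, and 7.72, 1.41 and 1.21 CPM in CONV. Sham replicate 1 and CONV replicate 1 were high and all groups overlapped. Its log2 fold changes were −0.67 ± 0.72 in FLASH and −0.46 ± 0.77 in CONV against sham, with adjusted p of 0.998 and 0.792.

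Jun encodes c-Jun, the AP-1 subunit that JNK phosphorylates and that can also pair with itself. The gene is a single exon at chr4:95049034-95052222 on the minus strand, and 232 of its bases are shared with an antisense gene, Junos. Jun stood at 73.1, 103 and 95.3 CPM in sham, at 58.0, 80.8, 22.0 and 57.5 CPM in FLASH, and at 73.8, 23.1 and 34.9 CPM in CONV. The lymphocyte-rich pair had the lowest Jun values, CONV replicate 3 came next, and FLASH replicate 2 and CONV replicate 1 reached the sham range. The log2 fold change was −0.73 ± 0.47 for FLASH and −1.04 ± 0.51 for CONV against sham (adjusted p = 0.998 and 0.607), and −0.48 ± 0.28 and −0.75 ± 0.32 over the 8 other libraries (adjusted p = 1.00 and 0.373).

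Over those 8 libraries the CONV value of Jun rested on 2 libraries that lay far apart, at 73.8 and 34.9 CPM. When CONV replicate 1 was left out as well, Jun was −1.40 ± 0.28 against sham and passed the threshold (edgeR adjusted p = 0.0323), and when CONV replicate 3 was left out it was −0.31. The former value sets 1 CONV library against sham, on the assumption that its spread is that of the other groups.

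Junb encodes an AP-1 subunit that is a weaker activator than c-Jun, can oppose it, and is induced by cytokines as well as by growth factors. The 3 sham libraries held 15.1, 14.3 and 9.65 CPM of Junb and the 3 CONV libraries 28.2, 37.8 and 35.8 CPM. The 4 FLASH libraries held 15.9, 8.31, 41.7 and 13.7 CPM. Every CONV library lay above every sham library, which held for 8.58% of all genes tested. FLASH replicates 1, 2 and 4 lay around the sham values, and FLASH replicate 3 was the highest of all.

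The log2 fold change of Junb in CONV against sham was 1.38 ± 0.53, 2.60 times the sham level, with an edgeR p of 0.0279 that did not pass after adjustment (adjusted p = 0.607). FLASH against sham gave 0.61 ± 0.49 and FLASH against CONV −0.77 ± 0.48 (adjusted p = 0.998 and 0.999). Over the 8 other libraries the CONV value was nearly as large, 1.27 ± 0.29 (adjusted p = 0.136), FLASH against sham was −0.05 ± 0.27, and FLASH against CONV was −1.33 ± 0.29 (adjusted p = 0.152). DESeq2 on the same 8 libraries called Junb in CONV against sham (1.29 ± 0.32, adjusted p = 0.00407) and in FLASH against CONV (−1.33 ± 0.32, adjusted p = 0.00278). Both of these comparisons share the same 2 CONV libraries.

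Junb was the only member called by DESeq2 over the 8 libraries, in a setting where that test called 4.33% of all genes in CONV against sham and 4.37% in FLASH against CONV. It was also the only member whose CONV and sham libraries did not overlap among the 10, which held for 8.58% of all genes tested in the same direction. Leaving out each of the 10 libraries in turn kept the CONV value between 1.19 and 1.49. The FLASH against CONV value ranged from −1.43 without FLASH replicate 3 to −0.51 without FLASH replicate 2.

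Other measures were read beside Junb, and their part in the result was not tested. The ribosomal precursor Rn45s took 7.51%, 8.39% and 5.27% of gene counts in FLASH replicate 3 and CONV replicates 2 and 3, against 1.79% to 3.27% in the other 7 libraries, among them CONV replicate 1 at 2.05%. In CONV replicates 1 and 3 the B cell markers summed to 6.98 and 3.16 CPM (1.66 to 3.86 in sham), the T cell markers to 8.90 and 9.78 CPM (3.53 to 8.41 in sham), and the 8 macrophage markers to 2225 and 813 CPM (767 to 930 in sham). Junb (chr8:84974484-84978718, minus strand) shares 173 exon bases with Prdx2 on the opposite strand. Prdx2 stood at 73.2 to 82.6 CPM in sham and at 82.9, 39.2 and 95.0 CPM in CONV. To which gene the reads in the shared bases were assigned was not tested.

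Fos and Junb kept nearly the same ratio in the 3 sham libraries. Their Junb to Fos ratios, of CPM and not per length, were 0.784, 0.769 and 0.772. FLASH replicates 1, 2 and 4 gave 1.01, 0.650 and 1.34, and CONV replicate 1 gave 0.729. FLASH replicate 3 and CONV replicates 2 and 3 gave 6.36, 11.1 and 5.23. The ratio thus separated those 3 libraries from the other 7, and it was near the sham value in CONV replicate 1, where both genes were high.

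Atf3, a stress-induced ATF family member that pairs with Jun proteins and often represses transcription, lies at chr1:191170296-191218039 on the minus strand. It was present at 2.55, 5.11 and 3.33 CPM in sham, 3.66, 3.33, 2.66 and 1.70 CPM in FLASH, and 7.56, 2.38 and 3.35 CPM in CONV. Only CONV replicate 1 lay above the sham range. The log2 fold change in CONV against sham was 0.27 ± 0.50 (adjusted p = 0.809), and it was −0.37 ± 0.47 in FLASH against sham (adjusted p = 0.998).

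The EGR proteins are zinc finger factors. Egr1 answers growth factors and injury and is found in most cell types, and Egr2, known as Krox20, takes part in adipocyte differentiation, in myelination and in activated lymphocytes. Egr1 stood at 50.3, 74.7 and 69.2 CPM in sham, at 57.4, 18.2, 44.7 and 29.8 CPM in FLASH, and at 74.6, 24.1 and 26.2 CPM in CONV. FLASH replicates 2 to 4 and CONV replicates 2 and 3 lay below every sham library, and FLASH replicate 1 and CONV replicate 1 lay within the sham range. The log2 fold change was −0.79 ± 0.48 in FLASH and −0.64 ± 0.52 in CONV against sham (adjusted p = 0.998 and 0.631), and FLASH against CONV was −0.15 ± 0.48.

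Egr2 (chr10:67535475-67542188, plus strand) did not follow Egr1. It was present at 2.70, 3.68 and 2.89 CPM in sham, 2.60, 1.90, 13.6 and 1.95 CPM in FLASH, and 5.19, 9.25 and 1.36 CPM in CONV. The lymphocyte-rich pair held the highest values, and without FLASH replicate 3 the FLASH value changed from 0.70 ± 0.84 to −0.53 against sham. Over the 8 other libraries Egr2 was the only member whose FLASH libraries all lay below the sham libraries, as did 4.64% of all genes tested, and its log2 fold change there was −0.53 ± 0.45 (adjusted p = 1.00). The ratio of Egr2 to Egr1 was 0.305 and 0.384 in the pair and 0.0418 to 0.105 in the other libraries.

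Nr4a1 encodes Nur77, an orphan nuclear receptor that adrenergic stimulation induces in fat and antigen receptor signals induce in lymphocytes. Its gene lies at chr15:101254269-101274795 on the plus strand. Nr4a1 already varied within sham, at 12.4, 36.9 and 20.8 CPM, and stood at 20.9, 15.5, 30.3 and 9.05 CPM in FLASH and at 39.1, 21.0 and 9.93 CPM in CONV. All groups overlapped. The log2 fold change was −0.30 ± 0.56 in FLASH and 0.00 ± 0.60 in CONV against sham (adjusted p = 0.998 and 1.00).

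Ier2, a small nuclear protein gene at chr8:84661331-84662852 (minus strand), and Ier3, which encodes a regulator of cell survival downstream of NF-kB at chr17:35821684-35822923 (plus strand), are named for their early response. Ier2 was present at 10.6, 8.69 and 6.35 CPM in sham, 10.0, 6.40, 17.8 and 7.23 CPM in FLASH, and 9.99, 15.1 and 8.06 CPM in CONV. Its high values were again those of the lymphocyte-rich pair, and over the 8 other libraries its log2 fold changes were −0.12 ± 0.25 in FLASH and 0.06 ± 0.27 in CONV against sham.

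Ier3 was present at 3.71, 3.81 and 5.68 CPM in sham, 3.82, 2.64, 3.74 and 5.19 CPM in FLASH, and 8.07, 3.89 and 7.58 CPM in CONV. CONV replicates 1 and 3 were the highest of the series, and CONV replicate 2 of the lymphocyte-rich pair lay in the sham range. The log2 fold change in CONV against sham was 0.57 ± 0.38 over 10 libraries and 0.81 ± 0.32 over 8 (adjusted p = 0.607 and 0.327). FLASH against CONV was −0.76 ± 0.35 and −0.998 ± 0.317 (adjusted p = 0.999 and 0.237). Over the 8 libraries Junb and Ier3 were the members without overlap between CONV and sham and between FLASH and CONV, where 13.0% of all genes lay higher in CONV than in sham and 13.3% lower in FLASH than in CONV.

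**Figure D2:**
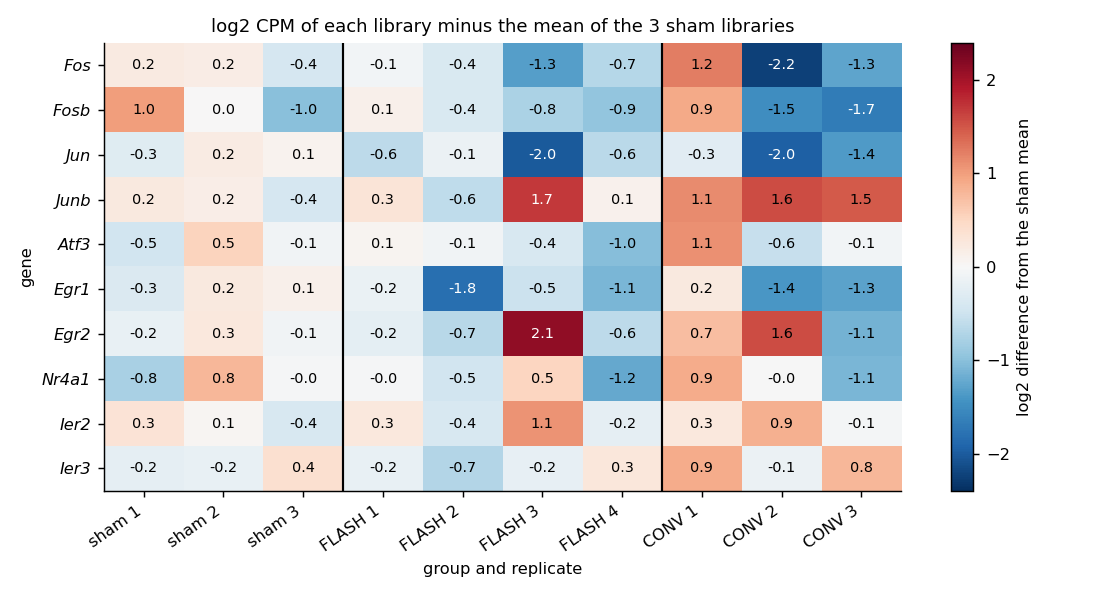
Difference of the log2 CPM of each gene in each library from its mean over the 3 sham libraries, with red above and blue below, genes as rows and libraries as columns. CONV replicate 1 is red for 9 of the 10 genes, the Jun row is blue in every irradiated library, and the Junb row is red in all 3 CONV libraries and in FLASH replicate 3.

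Read by library, the members did not move as 1 group. CONV replicate 1 had the highest values of Fos, Atf3, Nr4a1 and Ier3 and was among the top 3 libraries for 7 members. Its mean over the 10 members lay 0.71 above the sham mean on the log2 scale, and sham replicate 2 came second at 0.22. FLASH replicate 4 was lowest at −0.61, with FLASH replicate 2 at −0.56 and CONV replicate 3 at −0.57 (log2), so the extremes of the series came from irradiated libraries and 1 group held both high and low libraries.

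CONV replicate 1 also had the highest sums of the 8 skeletal muscle markers, 1803 CPM, and of the 8 macrophage markers, 2225 CPM. The muscle sum was 614 CPM in sham replicate 3 and 320 CPM in FLASH replicate 2, where the members' means were −0.18 and −0.56 (log2), and at most 36.5 CPM elsewhere. The macrophage sum was 1629 CPM in CONV replicate 2 and 725 to 1230 CPM in the other libraries. Alas2, an enzyme gene of red cell precursors, was at 111 CPM in CONV replicate 1 and at most 23.1 CPM elsewhere. The 4 globin genes searched were listed at 0 in every library. So were the lymph node genes Ccl21a and Ccl19, even in the lymphocyte-rich pair, so a listed 0 need not mean absent RNA. The part of these cell types in the members' levels was not tested.

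FLASH replicate 3 split the list. It had the highest Junb, Egr2 and Ier2 and the lowest Jun of the series. CONV replicate 2 ranked second for the same 3 genes and had the lowest Fos. In this pair Jun lay 2.02 and 1.95 below the sham mean on the log2 scale, Fos 1.32 and 2.25 below, and Junb 1.70 and 1.56 above.

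The members differed in how closely they followed the rest of the list. Pearson's r between a gene and the mean of the other 9 over 10 libraries was highest for Egr1 (0.75), Nr4a1 (0.75) and Atf3 (0.71) and lowest for Junb (−0.01) and Jun (0.08). Over the 8 other libraries it was 0.93 for Egr2, 0.89 for Fos and 0.81 for Nr4a1, and 0.14 for Junb and 0.15 for Ier3. These values describe libraries that share groups and cell content, and they were not tested.

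By the biological coefficient of variation in edgeR all 10 members varied more between libraries than the median gene. Their coefficients were 0.402 (Ier3) to 0.751 (Egr2) over 10 libraries, against a median of 0.392 for all genes tested. Over the 8 other libraries they were 0.249 (Ier2) to 0.603 (Fosb), against 0.212. The ratio of the highest to the lowest of the 10 libraries exceeded the median of all genes, 2.89, for 9 members, with Ier2 at 2.80.

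**Figure D3:**
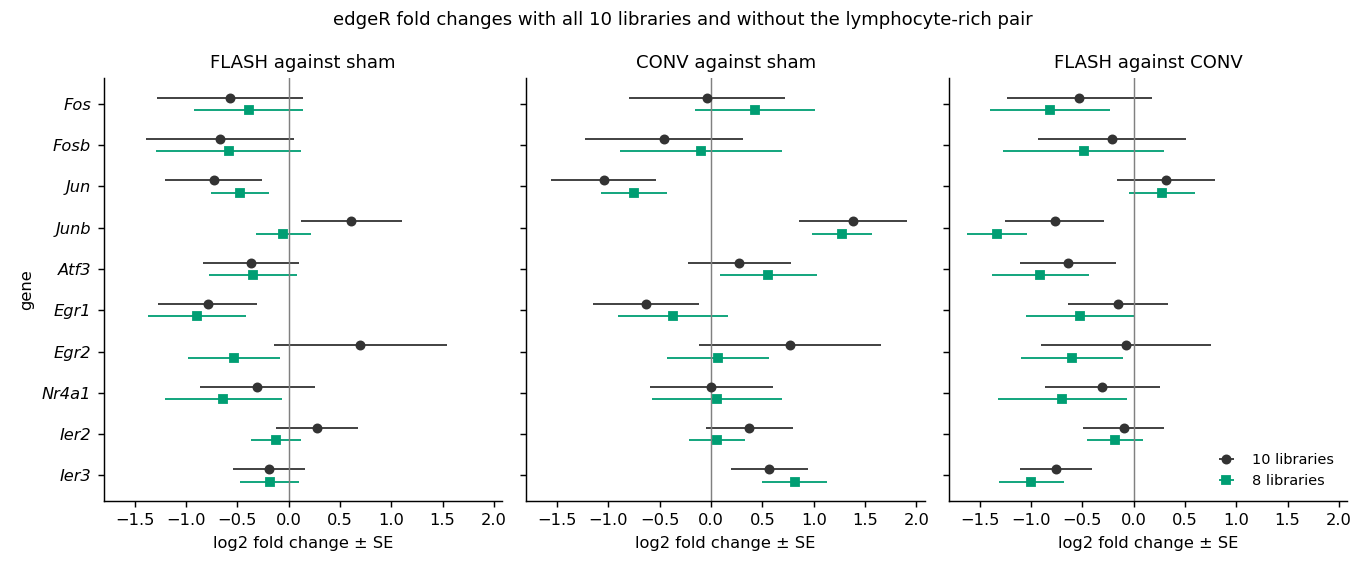
edgeR log2 fold change ± SE of each member, with 1 panel per comparison (FLASH or CONV against sham, and FLASH against CONV), all 10 libraries (circles) and with the 8 other libraries (squares). Junb lies farthest from 0 in CONV against sham (1.38 and 1.27), Egr2, Junb and Ier2 change sides in FLASH against sham when the pair is left out, and 9 of 10 members lie below 0 in FLASH against CONV in either set.

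By comparison, edgeR called 0 of the 10 members at an adjusted p under 0.05, whether FLASH, CONV or both irradiated groups were set against sham or the irradiated groups against each other. Over 10 libraries it called 0% of the 15266 genes tested in each of these comparisons, so the members' count of 0 matches the background. At an unadjusted p under 0.05 it had 99 genes in FLASH against sham, 889 in CONV against sham, 453 in FLASH against CONV and 458 in both against sham, with Junb in CONV against sham the only member among them. DESeq2 called 0, 66, 40 and 8 genes in these comparisons and no member.

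Over the 8 other libraries edgeR called 6 of 15252 genes in CONV against sham (0.0393%), 2 in FLASH against CONV (0.0131%) and 0 in each of the others (0%), none of them a member. All 10 members had negative values in FLASH against sham, with a median log2 fold change of −0.43 against −0.01 for all genes, and adjusted p of 1.00 throughout. In FLASH against CONV 9 of 10 were negative, with a median of −0.65 against −0.02, and in CONV against sham 7 were positive, with a median of 0.07 against 0.01. FLASH and CONV share the sham libraries, and FLASH against CONV shares libraries with both, so these signs are not independent. For both irradiated groups together, Jun was −0.62 ± 0.25 and Junb 0.61 ± 0.25 (adjusted p = 0.693 and 0.691).

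**Figure D4:**
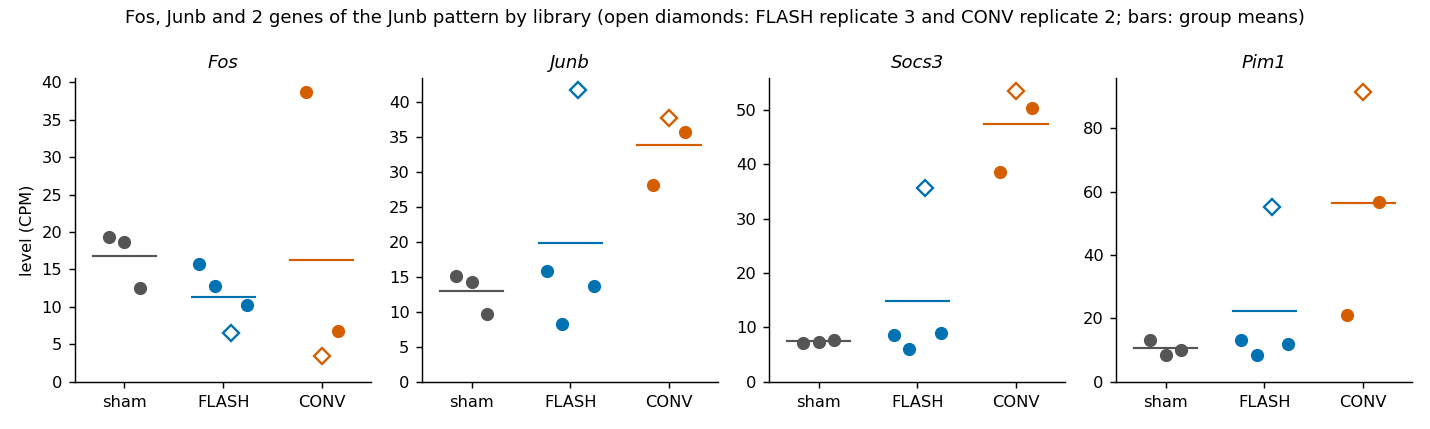
Levels (CPM, linear axis from 0) of Fos, Junb, Socs3 and Pim1 in every library by group, with open diamonds for FLASH replicate 3 and CONV replicate 2 and bars for group means. Junb, Socs3 and Pim1 are high in the 3 CONV libraries and in FLASH replicate 3, and Fos is high in CONV replicate 1 and low in the other CONV libraries.

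Genes whose pattern over the libraries was most like that of Junb were looked up after its values had been seen, among 11382 genes. Armcx4 (Pearson's r = 0.94), Socs3 (0.94), Pus7l (0.93), Irf7 (0.93) and Pim1 (0.93) were closest over 10 libraries. Socs3, an inhibitor of cytokine signalling that STAT3 induces, stood at 7.17, 7.39 and 7.77 CPM in sham, 8.66, 6.11, 35.6 and 8.96 CPM in FLASH, and 38.6, 53.4 and 50.4 CPM in CONV. Its CONV libraries and FLASH replicate 3 were separate from the other 6. Pim1, a cytokine-induced kinase, had the same high libraries, with 21.3, 91.6 and 56.8 CPM in CONV, 55.2 CPM in FLASH replicate 3 and 8.46 to 13.4 CPM in the others.

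The pattern of Fos was a different one. Sema6d (r = 0.93), Il1rl1 (0.92), Ctsk (0.92), E130311K13Rik (0.91) and Glis3 (0.91) came closest over 10 libraries. Il1rl1, the receptor of interleukin-33, stood at 38.3 CPM in CONV replicate 1, at 16.5 to 24.2 CPM in sham, and at 5.83 and 7.03 CPM in CONV replicates 2 and 3. The mean of the 10 members was followed most closely by Ttc1 (0.90), Ankrd23 (0.83), Cmtm6 (0.81), St3gal5 (0.76), Specc1 (0.76), Gpr34 (0.74), Rcn3 (0.74) and Oser1 (0.72). Ankrd23, a muscle ankyrin repeat gene, was at 60.2 CPM in CONV replicate 1 and 4.82 to 12.7 CPM elsewhere. With the pair left out only Ttc1 stayed among the 8 nearest to the mean, and none of the 5 genes nearest to Fos or of the 5 nearest to Junb stayed on its list.

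The wider early response was read from 8 lists of related genes, 141 genes in all, and edgeR called none of them in any comparison, with 10 or with 8 libraries. Among 9 tested genes of other AP-1 subunits, 5 were positive in CONV against sham over 10 libraries, with a median log2 fold change of 0.11 against 0.08 for all genes. Without the pair 6 of the 9 were positive and the median was 0.23, against 0.01 for all genes. Batf, an AP-1 factor of lymphocytes, was at 2.93 ± 1.16 over 10 libraries and 1.85 ± 0.50 over 8, Maff at 0.79 ± 0.55, Mafk at −0.39 ± 0.19 and Jdp2 at −0.48 ± 0.39. Jdp2 stood at 11.1, 5.80 and 10.6 CPM in CONV, lowest in the lymphocyte-rich replicate 2, against 12.3 to 13.7 CPM in sham. Of 15 tested other early transcription factors 10 were positive (median 0.49, and 0.27 over the 8 other libraries). Cebpd, a factor of early adipogenesis and of the acute phase, was at 0.85 ± 0.33, Klf6 at −0.79 ± 0.36 and Klf4 at −0.55 ± 0.55. In CONV Klf6 stood at 220, 103 and 126 CPM and Klf4 at 61.8, 15.4 and 35.2 CPM, both lowest in replicate 2. Csrnp1 was at 1.99 ± 0.99, but its CONV levels were 6.92, 49.5 and 8.79 CPM against 4.07 to 7.65 CPM in sham, and without the pair its value was 0.50 ± 0.32.

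Of 27 other early genes 16 were positive in CONV against sham (median 0.27, and 0.11 over the 8 other libraries). The kinase gene Sik1 was at 0.92 ± 0.27, Pim1 at 2.42 ± 0.78 and Ifrd1 at −0.62 ± 0.48. Ifrd1 stood at 150, 40.4 and 109.5 CPM in CONV, lowest in the lymphocyte-rich replicate 2, against 129 to 179.5 CPM in sham. The 18 feedback regulators, which include MAP kinase phosphatases, Sprouty and Spred adaptors, the mRNA decay proteins of the Zfp36 family and the EGR co-repressors Nab1 and Nab2, were 9 positive and 9 negative with 10 and with 8 libraries. Dusp6 was at 0.53 ± 0.18, Dusp10 at −0.94 ± 0.33 and Dusp8 at −1.81 ± 0.70. Dusp2 was at 4.26 ± 2.50, a value set by the lymphocyte-rich CONV library: its CONV levels were 0.320, 22.8 and 0.552 CPM against 0.304 to 0.521 CPM in sham, and without the pair it was at 0.07 ± 0.85.

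The 28 upstream kinases and factors had a median of 0.02 in CONV against sham, and none reached an unadjusted p of 0.05. Without the pair the median was −0.02 and 4 of the 28 reached it. The smallest p values over 10 libraries were those of Mapk14, Rps6ka1, Rps6ka3 and Mapk3. Mapk14, which encodes p38 alpha, was at 0.31 ± 0.15 and Rps6ka1 at 1.94 ± 0.94 (0.56 ± 0.19 without the pair). Rps6ka3 was at −0.98 ± 0.44 and Mapk3, which encodes ERK1, at −0.59 ± 0.33. Rps6ka3 stood at 466, 162 and 230.5 CPM in CONV, lowest in the lymphocyte-rich library, against 485 to 612 CPM in sham. Of 15 tested targets of AP-1 and EGR1, 11 were positive (median 0.37, and 0.34 with 12 of 16 positive over the 8 other libraries), with the stromelysin gene Mmp3 at 1.35 ± 0.52, Icam1 at 1.83 ± 0.84 (0.93 ± 0.18 without the pair), Pdgfa at −0.76 ± 0.33 and Mmp13 at −1.97 ± 0.90. Mmp3 stood at 19.99, 21.9 and 33.7 CPM in sham and at 88.2, 22.4 and 82.1 CPM in CONV, so the lymphocyte-rich CONV library lay in the sham range. Mmp13 was low, at 0.456 to 0.608 CPM in sham and 0.160, 0.235 and 0 CPM in CONV, so its value rests on few counts.

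Heat shock and hypoxia genes, which also answer the handling of tissue, were read beside the members. Of 14 heat shock genes 12 were negative in FLASH against sham (median −0.28 against 0.03 for all genes) and 8 in CONV against sham (median −0.03). In the 8 other libraries 11 were negative in FLASH (median −0.19 against −0.01 for all genes) and 6 in CONV (median 0.05). Hspa1b was at −0.80 ± 0.54 and Dnajb4 at −0.72 ± 0.49 in CONV, with Hsph1 at 0.70 ± 0.27 and Dnajb1 at 0.27 ± 0.23. Dnajb4 stood at 50.95, 17.0 and 51.2 CPM in CONV, lowest in the lymphocyte-rich replicate 2, against 55.7 to 73.8 CPM in sham. Hspa1b and its near-identical copy Hspa1a, whose reads could be split between them, were at 0.502 to 5.21 CPM in every library. In CONV replicate 1 they stood at 2.75 and 2.21 CPM, inside their sham ranges. Of the other heat shock genes named here, Hsph1 (30.2 CPM) lay above its sham range in that library, Dnajb4 (50.95 CPM) below and Dnajb1 (16.01 CPM) inside. Of 12 hypoxia genes 7 were positive in CONV against sham (median 0.15), with Egln3 at 0.97 ± 0.37, Ndrg1 at −1.12 ± 0.35 and Pfkfb3 at −0.91 ± 0.65. Pfkfb3 stood at 572, 185 and 1092 CPM in CONV, lowest in the lymphocyte-rich replicate 2, against 973 to 1271 CPM in sham. Car9 was at 2.18 ± 1.06, with 0.320, 1.07 and 0.368 CPM in CONV. In the 8 other libraries 5 of 10 tested hypoxia genes were positive (median −0.01), and Car9 did not pass the filter.

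Without the lymphocyte-rich pair, DESeq2 called 12 of 137 tested related genes in CONV against sham (8.76%, against 4.33% of all genes), 9 higher and 3 lower in CONV. The higher ones were Batf, Cebpd, Dusp6, Icam1, Il6, Mmp3, Pim1, Rgs2 and Sgk1, and the lower ones included Dusp8 and Ndrg1. In FLASH against CONV, which shares those CONV libraries, it called 16 of the 137 (11.7%, against 4.37% of all genes), 5 higher and 11 lower in FLASH. The higher ones included Dusp8, Mafk, Ndrg1 and Spred2, and the lower ones were Cebpd, Egln3, Hsph1, Icam1, Il6, Mmp3, Pim1, Rgs2, Sgk1, Timp1 and Vegfa. In FLASH against sham it called 0 of 137 (against 0.0262% of all genes). In both irradiated groups against sham it called 3 of 137 (2.19%, against 0.846%), with Cebpd and Mmp3 higher and Dusp8 lower. The lists were chosen with earlier results of these data known, so these shares describe them and are no test of them. In CONV against sham Cebpd rose by 1.15 ± 0.18 (adjusted p = 1.905e-07) and Mmp3 by 1.75 ± 0.34 on the log2 scale (adjusted p = 4.242e-05). On the same 8 libraries edgeR gave Cebpd an adjusted p of 0.0747, the lowest of any related gene in that comparison. Il6 rose by 2.92 ± 0.80 (adjusted p = 0.0104) from low levels, 0.122 to 0.135 CPM in sham against 0.961 and 0.993 CPM in CONV replicates 1 and 3. Several of the genes highest in the pair itself, picked after their values were seen, were early genes as well: Egr3 stood at 43.5 and 34.2 CPM there against at most 4.00 CPM elsewhere, and Ier5 at 73.8 and 64.3 CPM against at most 16.1 CPM.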

How the data were processed

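The authors deposited 1 table of gene counts per library, raw and keyed by gene symbol. The submitters' processing notes name kallisto 0.5.0 and the mm10 build, while each table closes with 5 rows of reads assigned to no gene, as a read counter over alignments writes. The aligner, annotation and strand setting were not given in the sources used here. Those rows held 52.0% to 69.6% of all counts and were left out. Depth was 22387877 to 36032027 gene counts, and a count of 3 equals 0.0833 to 0.134 CPM.

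CPM and log2 CPM (prior count 2) used TMM factors. Genes were tested with edgeR 4.0.16 (quasi-likelihood, robust, R 4.3.3) on all groups together after filterByExpr, with Benjamini-Hochberg adjustment over all genes and a threshold of 0.05, and the code was tested on simulated data. DESeq2 1.42.0, limma 3.58.1, other scalings, filters and sample sets were alternatives. Likeness is Pearson's r of log2 CPM among genes with a mean log2 CPM of at least 2. Exon lengths and positions are from GENCODE M21. Names printed are all members, the likeness lists, and per related list up to 2 genes per direction with the smallest p in CONV against sham, except 1 gene that is not reported here. The members and lists were chosen with earlier results of these data known.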

Additional observations from a re-analysis of the deposited data

Results flagged for a closer look

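Egr2 in FLASH replicate 3, at 13.6 CPM, lay far above the other 3 FLASH libraries, which held 1.90 to 2.60 CPM. The gap to its nearest neighbour was 0.940 of the range of the FLASH group, above Dixon's 95% critical value for 4 samples. Of the 10 members tested this way in FLASH, 1 had such a library, and chance alone marks about 1 in 20 groups. FLASH replicate 3 belongs to the lymphocyte-rich pair, whose other library, CONV replicate 2, held 9.25 CPM of Egr2.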

How the results depend on the processing

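Scaling by DESeq2 size factors, upper quartile or total gene counts, the other filters and library sizes, and fits of only the groups compared left 0 genes and 0 members called. Genes called in CONV against sham numbered 66 by DESeq2, 1 by limma voom with quality weights, and without the lymphocyte-rich pair 6 by edgeR, 661 by DESeq2 and 4 by limma voom. For FLASH against CONV these counts were 40, 1, 2, 667 and 3, for both irradiated groups against sham DESeq2 gave 8 with 10 libraries and 129 with 8, and for FLASH against sham it gave 0 and 4. DESeq2 without the pair called 1 member in CONV against sham and 1 in FLASH against CONV, Junb each time.

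Leaving out 1 of 10 libraries gave 0 to 1 genes in CONV against sham and in FLASH against CONV (1 without FLASH replicate 3 in both, 1 without CONV replicate 2 in the latter) and 0 members. Leaving out a library beside the pair, which was chosen after seeing the data, gave 0 to 1134 genes and 0 to 1 members in CONV against sham, 0 to 1025 genes and 0 to 1 members in FLASH against CONV, and 0 to 39 genes in both against sham. The highest counts came without CONV replicate 1, where 1 CONV library was left and took its spread from the other groups; the member was Jun (−1.40) in CONV against sham and Junb (−1.48) in FLASH against CONV.

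No called value changed sign. Among values that were not called, Egr2, Ier2 and Junb changed sign in FLASH against sham, Egr2, Fos and Nr4a1 in CONV against sham, Fos, Fosb, Ier2 and Nr4a1 in FLASH against CONV, and Atf3, Egr2, Fos and Ier2 in both against sham, under alternatives that left out no single library. In FLASH against CONV 7 of 10 members were negative by limma voom over 10 libraries, against 9 by edgeR. With the replicate block, 0 genes and 0 members were called in every comparison. Same-numbered libraries correlated from −0.82 to 0.42 in their deviations from the group means, 4 of 9 pairs above 0.1. The lymphocyte-rich pair, which carries different numbers, correlated at 0.92, so these values cannot tell whether the numbers pair the samples. Depth limits the low members: 1.21 CPM of Fosb in CONV replicate 3 rests on 33 counts.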
